A study of Mus musculus with 13 samples.

Results

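The genes of 10 receptors that sense lipids, bile acids, sterols and foreign compounds were described in mouse liver. They are Nr1h4, Nr1i2, Nr1i3, Nr1h2, Ppara, Ppard, Pparg, Rxra, Esrra and Ahr. They were chosen by symbol, and all 10 are among the 11779 genes of the deposited liver table. Liver RNA was sequenced on day 5 from 3 Balb/c mice in the Liver LL35 ASO group and 3 in the Liver Luc ASO group. The Liver LL35 ASO mice had received a mix of GalNAc-conjugated antisense oligonucleotides (ASOs) against the long non-coding RNA LL35. The labels give 5 ASOs in the mix, while the study's list of oligonucleotides for mice names fewer. The labels put the dose at 150 mg/kg for each ASO and the methods at that dose for the whole mix. The Liver Luc ASO mice had received a GalNAc-conjugated ASO against firefly luciferase, a sequence that mice lack. Both groups thus carried a GalNAc-conjugated ASO, a form taken up mainly by hepatocytes, and no untreated liver was analysed here. AML12 cells, a mouse hepatocyte line that was also sequenced, were not analysed here.

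The value used for each gene was the authors' mean normalized count over the compared liver libraries. This column of DESeq2 averages all libraries of a comparison and so pools mice of both ASO groups. It carries no SD and no n. No level of a single mouse was used, and no difference between the LL35 and Luc livers is given. Each level below is therefore a description of ASO-treated liver as a whole, and no order among the genes was tested. RNA came from whole tissue, in which fewer cells of a type and less RNA per cell cannot be told apart. The reads per library are not given in the sources used here, so the depth is unknown.

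Nuclear receptors are transcription factors that bind a small lipophilic ligand and, with it, change partners and the transcription of nearby genes. Most of the receptors described here bind DNA as a heterodimer with a retinoid X receptor (RXR). In the liver they are known for matching the synthesis and clearance of bile acids, the oxidation and storage of fatty acids, and the breakdown of drugs to what the portal blood brings. Ahr, the aryl hydrocarbon receptor, is not a nuclear receptor by structure. It is a bHLH-PAS protein that pairs with Arnt, and it is counted here with the receptors of foreign compounds, so 9 of the 10 genes belong to the nuclear receptor superfamily.

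The sequences around the annotated starts show how differently these genes begin. RefSeq start sites were matched for 9 of the 10 genes, 12 sites in all, each with 250 bases before and 50 bases after the start. Ahr had no entry. The 3 receptors of bile acids and foreign compounds are shown with Ppard, which had the lowest level of the 10 per length of exon, although Pparg was lowest by longest transcript or coding length. All coordinates are those of RefSeq on GRCm38.p6, at chr10:89506609-89506908 on the minus strand for Nr1h4, chr16:38294775-38295074 on the minus strand for Nr1i2, chr1:171213720-171214019 on the plus strand for Nr1i3 and chr17:28232504-28232803 on the plus strand for Ppard. Each sequence runs 5′ to 3′ along the gene, and capitals mark every CG dinucleotide.
Nr1h4: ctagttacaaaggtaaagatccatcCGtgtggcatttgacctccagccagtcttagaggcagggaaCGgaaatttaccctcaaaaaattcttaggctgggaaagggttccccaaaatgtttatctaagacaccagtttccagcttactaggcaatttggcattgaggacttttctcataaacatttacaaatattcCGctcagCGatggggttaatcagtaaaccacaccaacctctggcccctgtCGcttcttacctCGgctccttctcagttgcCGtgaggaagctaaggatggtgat
Nr1i2: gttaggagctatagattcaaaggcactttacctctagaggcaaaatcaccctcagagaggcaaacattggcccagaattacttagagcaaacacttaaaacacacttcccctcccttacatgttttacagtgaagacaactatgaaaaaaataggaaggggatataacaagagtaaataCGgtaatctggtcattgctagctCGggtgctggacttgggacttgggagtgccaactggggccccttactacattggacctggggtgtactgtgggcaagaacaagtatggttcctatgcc
Nr1i3: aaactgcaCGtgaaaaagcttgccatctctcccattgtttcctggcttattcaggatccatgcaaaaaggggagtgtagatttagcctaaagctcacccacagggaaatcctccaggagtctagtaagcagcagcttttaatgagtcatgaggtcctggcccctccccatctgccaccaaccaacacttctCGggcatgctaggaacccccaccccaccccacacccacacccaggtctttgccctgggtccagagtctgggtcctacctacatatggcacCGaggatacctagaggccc
Ppard: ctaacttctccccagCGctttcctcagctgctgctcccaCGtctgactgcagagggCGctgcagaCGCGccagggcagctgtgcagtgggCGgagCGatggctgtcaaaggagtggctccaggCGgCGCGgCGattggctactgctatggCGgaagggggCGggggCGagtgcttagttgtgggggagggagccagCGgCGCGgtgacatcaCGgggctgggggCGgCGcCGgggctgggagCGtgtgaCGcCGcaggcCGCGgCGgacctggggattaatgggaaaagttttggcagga

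Nr1h4 held 7 CG dinucleotides in these 300 bases, Nr1i2 held 2 and Nr1i3 held 3, whereas Ppard held 27. Over the 32851 start sites of this length in the table the median was 7. Both genes with several matched starts had CG-rich and CG-poor ones. The first start of Rxra held 55, and 99.8% of all sites had as many or fewer, whereas its second start held 1, and 14.1% of all sites had as many or fewer. The 3 starts of Pparg held 44, 13 and 2. Ppara with 30, Esrra with 25 and Nr1h2 with 19 were also above the median.

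The hexamer AGGTCA, the core element of many nuclear receptor sites, was searched on both strands with its complement TGACCT. It lay in 4 of the 12 sites, against 16.3% of all sites, with 1 copy at Nr1h4, 2 at the second start of Rxra and 1 at each of 2 starts of Pparg. The core of the Ahr response element, GCGTG on either strand, lay in 4 of the 12 sites, against 32.4% of all sites. A match of letters shows neither binding nor use of a start in these livers.

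Levels were compared between genes only per length. The authors' mean normalized count was divided by the length of all annotated exons of the gene in kilobases. The result was then scaled to sum to 1000000 over all 11754 listed genes with a known length, and this length-scaled level is given as TPM. No listed gene had a mean normalized count below 15.6, so the median and the percentiles describe the listed genes only. The median listed gene had a level of 14.1 TPM. Among the 10 receptors, 8 lay above it and 5 lay at percentile 93.3 or higher among the listed genes. Their median level was 99.2 TPM, and together they made up 1367 TPM.

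**Figure D1:**
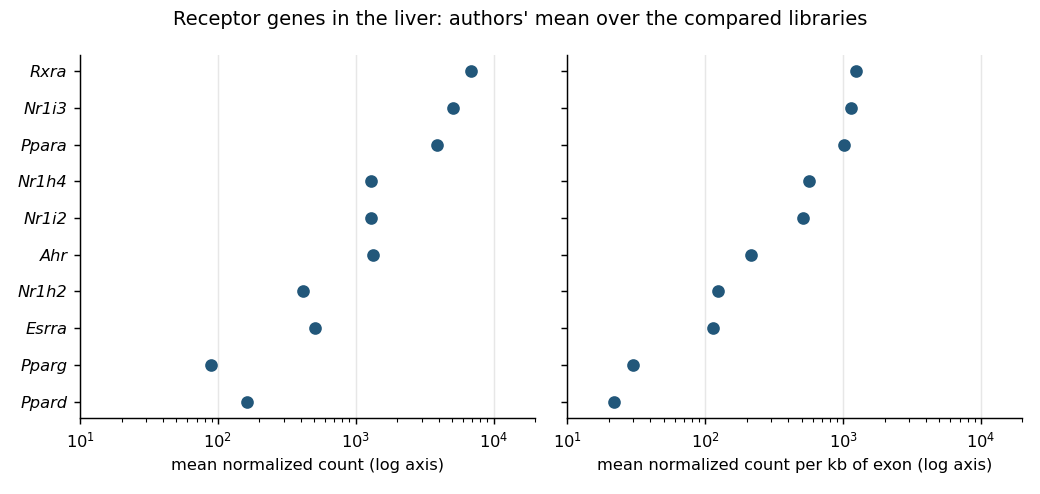
The authors' mean normalized count of each receptor gene in liver (left) and the same value per kilobase of annotated exon (right), both on log axes, with a point for each gene and no error because the values are pooled over mice. Rxra had the highest value per kilobase, 1249, and Ppard the lowest, 21.7, while Ahr had a higher count than Nr1h4 and Nr1i2 and a lower value per kilobase.

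**Figure D2:**
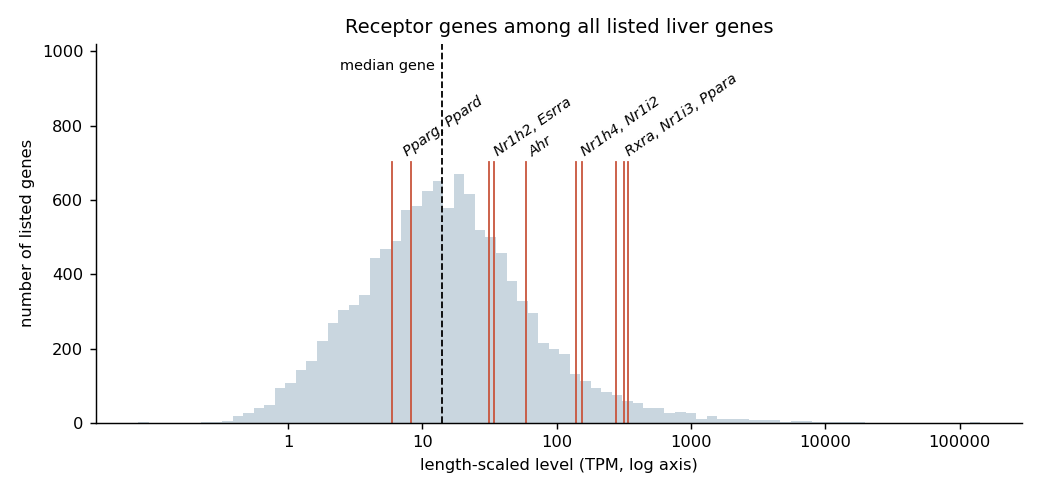
Histogram of the length-scaled level in TPM (log axis) of the listed liver genes with a known length, with a red line for each receptor gene and a dashed line at the median gene. Pparg and Ppard stand to the left of the median, and the other 8 genes stand to the right of it.

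RXR-alpha, the common heterodimer partner encoded by Rxra, had the highest level of the 10 genes per length of exon. Its mean normalized count was 6820, over 5462 bases of exon. This gave a level of 342 TPM, 24.2 times that of the median gene and at percentile 97.2. The Rxra level was 588 TPM by coding length, and by longest transcript it was 312 TPM, below Nr1i3 at 382. Rxra made up 91.0% of the summed level per kilobase of the 3 RXR genes, with 7.31% for Rxrb and 1.71% for Rxrg. Per kilobase of exon, the Rxra level was 12.4 times that of Rxrb and 53.1 times that of Rxrg, and by coding length the ratios were 19.2 and 125.

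The 7 receptor genes whose products pair with RXR (Nr1h4, Nr1i2, Nr1i3, Nr1h2, Ppara, Ppard and Pparg) together reached 3410 normalized counts per kilobase. The 3 RXR genes together reached 1372, a ratio of 0.402. With Nr1h3, which encodes LXR-alpha, added to the 7 genes, the ratio was 0.358. These are levels of RNA, and the receptor proteins were not measured.

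Nr1h4 encodes FXR, the bile acid receptor that curbs bile acid synthesis and drives bile salt export. Nr1h4 had a mean normalized count of 1297 over 2303 bases of exon, or 154 TPM at percentile 93.9. Of 10 known FXR targets, 7 are among the listed genes, and all 7 lay above the median gene, with a median level of 246 TPM. The highest was Slc27a5, a bile acid CoA ligase, at 877 TPM. The lowest was Nr0b2 at 113 TPM. Nr0b2 encodes SHP, a repressor through which FXR acts on bile acid synthesis, and the Nr1h4 level per kilobase was 1.36 times that of Nr0b2. The 7 listed targets include Cyp7a1 at 207 and Cyp8b1 at 299 TPM, genes of bile acid synthesis that FXR curbs. The list thus mixes genes that FXR raises with genes that it lowers, and FXR activity was not tested. Slc51a, Slc51b and Fgf15 were not analysed here.

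The receptors of foreign compounds, PXR and CAR, are encoded by Nr1i2 and Nr1i3. Nr1i2 had a mean normalized count of 1296, or 139 TPM, at percentile 93.3. Nr1i3 had a mean normalized count of 5067, or 314 TPM, at percentile 96.9. The Nr1i3 level per kilobase of exon was 2.26 times that of Nr1i2, against 3.35 times by longest transcript and 4.71 times by coding length. Nr1i3 shares 3304 exonic bases, 74.9% of its annotated exons, with Tomm40l on the opposite strand, which itself had a mean normalized count of 50.9. The library kit marks strand, but the strand used in counting is not given in the sources used here, so reads of this pair may not be told apart.

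Genes listed by hand as targets of each receptor lay above the median gene for the most part, and the activity of PXR and CAR was not tested. Of 8 PXR targets, 7 are listed, 6 of them above the median gene, with a median level of 311 TPM. They ran from Cyp3a11, a drug-oxidizing cytochrome P450, at 3223 TPM, down to Abcb1a, a drug efflux pump, at 7.69 TPM. All 8 CAR targets are listed and lay above the median gene, with a median level of 594 TPM. The highest CAR target was Cyp2c29 at 1301 TPM, and the lowest was Gadd45b at 44.7 TPM. Cytochrome P450 genes of a family are similar in sequence, so reads may be split or lost between them.

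Among the PPARs, Ppara stood far above both others. Its product, PPAR-alpha, drives fatty acid oxidation and ketone body synthesis in fasting. Ppara had a mean normalized count of 3894, or 278 TPM, at percentile 96.5. It made up 95.2% of the summed level per kilobase of the 3 PPAR genes. Pparg, known for fat storage in adipose tissue, had a mean normalized count of 88.4, or 8.20 TPM, at percentile 34.2. Ppard, a broadly expressed PPAR, had a mean normalized count of 163 over 7514 bases of exon, or 5.95 TPM, at percentile 26.2, with 9.83 TPM by longest transcript and 14.9 TPM by coding length.

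All 12 PPAR-alpha targets are listed, all 12 lay above the median gene, and their median level was 376 TPM. The lowest was Pdk4, a kinase that restrains pyruvate oxidation, at 23.1 TPM. Of 8 targets of PPAR-gamma and PPAR-delta, 7 are listed, 5 of them above the median gene, with a median level of 40.0 TPM. Plin2, a lipid droplet protein, was highest at 407 TPM and Lpl, lipoprotein lipase, was lowest at 3.83 TPM. Some genes of this list, Plin2 among them, are also known as PPAR-alpha targets. Their levels therefore cannot be credited to a single PPAR.

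LXR-beta, a sterol sensor encoded by Nr1h2, had a mean normalized count of 417, or 34.1 TPM, at percentile 74.2. Its paralog Nr1h3 was 3.42 times as high per kilobase, so that Nr1h2 made up 22.6% of the summed LXR level. All 9 LXR targets are listed, 8 of them above the median gene, with a median level of 61.4 TPM. The highest was Scd1, a fatty acid desaturase, at 559 TPM, and the lowest was Abcg1, a cholesterol efflux transporter, at 8.16 TPM.

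ERR-alpha, an orphan receptor that supports mitochondrial genes, is encoded by Esrra. Esrra had a mean normalized count of 503, or 31.4 TPM, at percentile 72.3. Per kilobase of exon, it was 5.17 times as high as its paralog Esrrg and 1.82 times as high as Ppargc1a, the coactivator that ERR-alpha needs in place of a ligand. By longest transcript these ratios were 7.88 and 3.14. Its exons share 73 bases with Trmt112 on the opposite strand, which is 1.66% of their length. All 10 ERR-alpha targets, a list that includes Esrra itself, lay above the median gene, with a median level of 136 TPM. By longest transcript, at counts of at least 50 or without division by length, 9 did. Atp5b, a subunit of ATP synthase, was highest at 796 TPM, and Cycs, cytochrome c, was lowest at 15.9 TPM.

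Ahr had a mean normalized count of 1334 over 6163 bases of exon, or 59.3 TPM, at percentile 84.7. Its level per kilobase of exon was 1.92 times that of Arnt, the partner with which it binds DNA, but only 1.15 times by longest transcript. Of 7 Ahr targets, 5 are listed, and 2 of these lay above the median gene (1 with the coding length as gene length), with a median level of 11.7 TPM, below that of the median gene. Cyp1a2, a P450 with a high basal level in liver, reached 495 TPM, while Cyp1b1 was lowest at 1.46 TPM. Cyp1a1 and Ahrr were not analysed here.

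**Figure D3:**
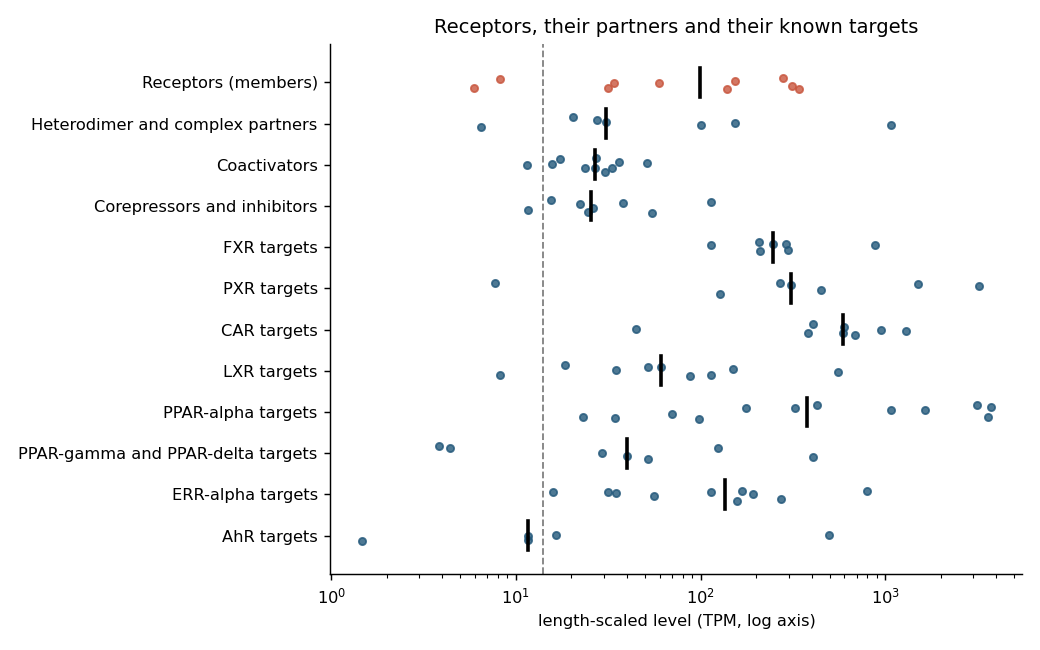
Length-scaled level in TPM (log axis) of the 10 receptor genes (red), of the listed genes of their partners and co-regulators, and of the listed known targets (blue), with a black bar at each median and a dashed line at the median listed gene. The medians of the target lists run from 11.7 TPM for Ahr to 594 TPM for CAR.

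The lists of partners and co-regulators had lower median levels than the 10 receptors, although single genes such as Hsp90ab1 and Nr0b2 lay higher than the receptor median. All 7 heterodimer and complex partners are listed, 6 of them above the median gene, with a median level of 30.9 TPM. They ran from Hsp90ab1, a chaperone that holds unliganded Ahr in the cytosol, at 1077 TPM, to Rxrg at 6.44 TPM. All 10 coactivators are listed, 9 of them above the median gene, with a median of 26.9 TPM, from Kmt2d at 51.1 to Ppargc1b at 11.5 TPM. By longest transcript, by coding length or at counts of at least 50, 7 coactivators lay above the median gene. Of 9 corepressors and inhibitors, 8 are listed, 7 of them above the median gene, with a median of 25.5 TPM, from Nr0b2 at 113 to Tiparp at 11.7 TPM.

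The 10 genes were ordered by level per length of exon. Rxra, Nr1i3 and Ppara stood first, at 342, 314 and 278 TPM. Nr1h4 and Nr1i2 followed at 154 and 139, then Ahr at 59.3, then Nr1h2 and Esrra at 34.1 and 31.4, and last Pparg and Ppard at 8.20 and 5.95. Neighbouring genes differed most between Esrra and Pparg, by a ratio of 3.83, and this gap was 4.86 by longest transcript and 6.81 by coding length. The gaps from Ppara to Nr1h4 and from Nr1i2 to Ahr were 1.80 and 2.35, and 1.77 or more under either other length. By coding length the gap from Ppara to Nr1h4 was 3.13. Smaller gaps also depended on the length used. Ahr stood 1.74 times above Nr1h2 per length of exon but 1.15 times by longest transcript, and Nr1i3 stood 1.13 times above Ppara but 1.70 times by coding length. Without division by length, Ahr stood above both Nr1h4 and Nr1i2. The first 3 genes made up 68.4% of the summed level per kilobase of the 10. No spread between mice was available, so none of these neighbours can be said to differ.

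**Figure D4:**
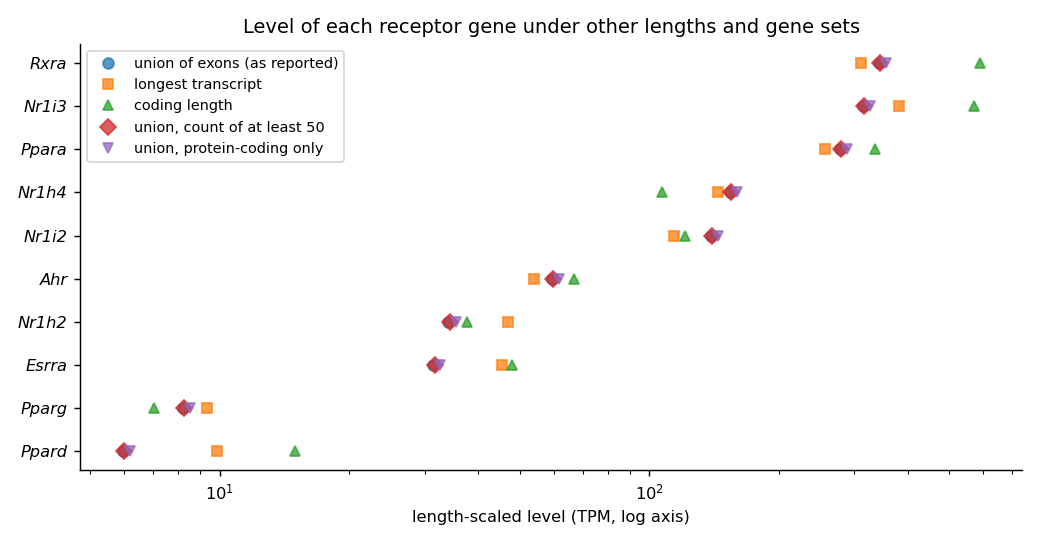
Length-scaled level in TPM (log axis) of each receptor gene with the union of exons, the longest transcript or the coding length as its length, and with the gene set limited to mean normalized counts of at least 50 or to protein-coding genes. Neighbours change places with the length used, as for Ppard at 14.9 and Pparg at 7.05 TPM by coding length and for Nr1i3 at 382 and Rxra at 312 TPM by longest transcript, and these 2 PPAR genes stay below the other 8 genes in all 5 settings plotted.

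Of the receptor genes described here, 7 had a single matched RefSeq start. Rxra and Pparg, with several starts, are not among them. Levels of 139 TPM or more were found at starts with 7 or fewer CG dinucleotides, 7 being the median of all sites, and for Ppara at a start with 30. The 3 genes with 7 or fewer, Nr1i2, Nr1i3 and Nr1h4, had levels from 139 to 314 TPM. Those with more, Nr1h2, Esrra, Ppard and Ppara, ranged from 5.95 to 278 TPM. Which start was used in these livers was not measured.

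**Figure D5:**
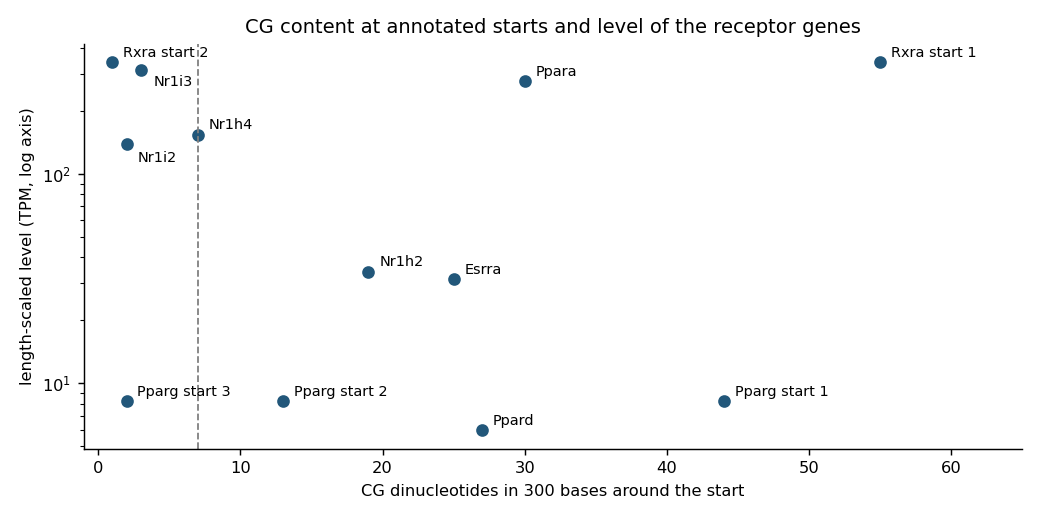
CG dinucleotides in the 300 bases around each RefSeq start (horizontal axis) and the length-scaled level of the gene in TPM (vertical log axis), with a point for each start, so that Rxra appears at 2 starts and Pparg at 3, and a dashed line at the median of all start sites. Nr1i2, Nr1i3 and Nr1h4 stand at or left of that line with levels from 139 to 314 TPM, and Ppara, at 278 TPM, stands to the right of it.

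Markers of liver cell types were measured in the same values. All 7 hepatocyte markers are listed, with a median level of 4203 TPM, and Alb alone took 10.8% of the summed mean normalized counts. The 6 Kupffer cell and macrophage markers had a median of 37.1 TPM, the 5 endothelial markers 34.6 and the 5 stellate cell markers 10.1. Of 4 cholangiocyte markers only Sox9 is listed, at 2.72 TPM, and Krt19, Krt7 and Epcam were not analysed here. Of 5 T, NK and B cell markers, 2 are listed, with a median of 3.50 TPM. Pparg and Ppard, the receptors with the lowest levels, thus lay below the medians of the macrophage, endothelial and stellate markers, but above the stellate median of 8.26 TPM by longest transcript, at 9.33 and 9.83 TPM. The share of each cell type in their level was not tested.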

How the data were processed

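RNA-seq of mouse liver was used, 3 mice in each ASO group. According to the methods and the labels, the authors depleted ribosomal RNA, prepared strand-marking libraries, aligned reads with STAR 2.5.3a, counted them on Ensembl genes and normalized them with the RLE method of DESeq2. The genome build is not given in the sources used here. The authors' deposited table holds for each gene a mean normalized count, a signal averaged over the compared libraries, which was the value used. Its other numeric columns hold the authors' own comparison of the groups (fold changes, standard errors, statistics, p-values and adjusted p-values) and were not used, so no test was run. Exon, transcript and coding lengths came from GENCODE release M21, in which 11754 of 11779 gene identifiers were found. The symbols of all 10 genes are unique in the table. Lengths are those of annotated exons, not of the transcripts used in these livers, so levels of genes with many transcripts may be too low. The known targets, partners and markers are lists written by hand. The genes and lists were chosen with earlier results of these data known. Every member was named, and of each list the genes with the highest and lowest level, except where a gene is not reported here. Other genes named were chosen after their values were seen. Start sequences came from RefSeq on GRCm38.p6. The merging of exon lengths was checked on a small example, and the length scaling and percentiles on simulated data. The other steps were not checked in this way. All steps were run with Python 3.11.15, numpy 2.4.6, pandas 2.3.3 and matplotlib 3.10.9. A planned comparison of receptor proteins was not run.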

Additional observations from a re-analysis of the deposited data

How the results depend on the processing

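The levels were recomputed with the longest transcript or the coding length as gene length, with genes of a mean normalized count of at least 50, and with protein-coding genes only. Of 40 such member levels, 35 lay within 1.5 times the reported value. By coding length, Rxra was at 588, Nr1i3 at 570, Esrra at 48.0 and Ppard at 14.9 TPM, and by longest transcript Ppard was 9.83 TPM. The number of the 10 genes above the median gene was 8 in each of these settings and without division by length. Some neighbours changed places. Nr1i3 passed Rxra by longest transcript, Nr1i2 passed Nr1h4 and Esrra passed Nr1h2 by coding length, and Ppard passed Pparg in both. Without division by length, Ahr passed Nr1h4 and Nr1i2, Esrra passed Nr1h2 and Ppard passed Pparg. Of 90 counts for the lists, 85 lay within 1.5 times. The exceptions were Ahr targets (1 above the median gene in place of 2, by coding length or at counts of at least 50), macrophage markers (3 in place of 6, by coding length or without division by length) and T, NK and B cell markers (1 in place of 0, without division by length). The cause was not tested. Ratios between genes and medians of lists were recomputed with both other lengths, a choice made after seeing the data, and the printed ratios that moved by over 1.5 times are given with the genes they concern. The medians that did so were, by coding length, CAR targets at 367, hepatocyte markers at 2287, stellate cell markers at 21.2 and the other receptors of the liver at 76.6 TPM, and, by longest transcript, PPAR-alpha targets at 570 and complex partners at 46.9 TPM. The median of T, NK and B cell markers was 8.33 by longest transcript and 7.96 TPM by coding length. No paired analysis was possible because the values are pooled over mice, and for the same reason no mouse could be left out in turn.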

Other observations

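Across the whole nuclear receptor superfamily, a list of 49 mouse genes added after the values were seen, 36 genes are among those listed. The 9 receptors described above made up 45.5% of the summed length-scaled level of the 36, and the other 27 made up 54.5%. Hnf4a, a hepatocyte identity factor, had the highest level of the superfamily, 698 TPM, and alone took 24.3% of the sum. Per kilobase it was 2.04 times as high as Rxra, which ranked next, followed by Nr1i3, Ppara, Nr1h4 and Nr1i2. The superfamily gene ranked after Nr1i2 was Nr1h3 at 116 TPM, and then came Nr0b2. The median level was 139 TPM for the 9 receptors and 18.1 TPM for the other 27. Of those 27, 15 lay above the median listed gene. The 13 genes of the superfamily not analysed here enter neither median. The 9 were picked as metabolic receptors, so the difference between the medians is a description and was not tested.

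At the other end, Pparg ranked 25th and Ppard 34th of the 36, beside Rarb at 5.39 and Esrrg at 6.08 TPM. These ranks are given per length of exon only, and by longest transcript or coding length Ppard lay above Pparg. The lowest listed gene of the superfamily per length of exon was Nr1h5 at 3.10 TPM. The clock receptors Nr1d2 and Nr1d1, transcriptional repressors within the circadian clock, stood at 74.6 and 46.6 TPM. The glucocorticoid receptor gene Nr3c1 stood at 55.4 TPM, close to Ahr. Of the 19 other receptors listed by hand for the liver, 17 have a value, 13 of them above the median gene, with a median of 38.3 TPM. Another 13 genes of the superfamily were not analysed here.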
